A study of Mus musculus with 4 samples.

Results

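The C/EBP transcription factors measured here were Cebpa, Cebpb, Cebpd and Cebpg, 4 of the 31709 gene names on a whole mouse genome array. Every spot that carried one of these names and was no control was taken, which gave 1 probe of 60 bases per gene. RNA of 4 fasted and 4 re-fed livers, each from an individual mouse, was compared on 4 two-colour arrays, each holding 1 liver of either kind and giving 1 ratio per probe. All animals were male C57BL/6J mice of 8 to 12 weeks (strain C57/Bl6 in the labels). The fasted mice went without food for 24 h, and the re-fed mice had the same 24 h fast followed by 2 h with food, so that a feeding response and not an unfasted state was the comparator. The 2 dyes, Cy5 (red) and Cy3 (green), were swapped: the fasted liver carried Cy5 in replicates 1 and 2 and Cy3 in replicates 3 and 4. The labels call the livers of an array paired without saying how they were matched, and a replicate below is 1 array with its own 2 livers.

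C/EBP factors are basic leucine zipper (bZIP) proteins: a zipper joins 2 proteins into a dimer, and the basic region beside it binds DNA. CEBPA is known for keeping the differentiated state of hepatocytes, CEBPB and CEBPD for transient responses to hormones, cytokines and cyclic AMP, and CEBPG for joining other bZIP proteins although it lacks an activating domain of its own. In liver, glucagon raises cyclic AMP during fasting, CREB binds cyclic AMP response elements, and C/EBP factors bind near many genes of glucose production.

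In fasted liver, 2 of the 4 members were called higher, against 1.70% of all probes tested, and 0 were called lower, against 2.08%. Cebpb was 2.63-fold and Cebpd 2.54-fold the re-fed level. Both calls were lost when the background model was fitted on all spots (adjusted p of 0.303 and 0.558 in limma), in place of leaving out 54 spots with extreme local background, a step chosen after its effect on calls had been seen. Cebpa and Cebpg were lower in fasted than in re-fed liver on each of the 4 arrays, but neither reached a 1.5-fold change.

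The table of RefSeq promoters (assembly GRCm38.p6, 250 bases before to 50 bases after each start) held Cebpa, Cebpb and Cebpg, but not Cebpd. Of these 3 promoters, that of Cebpb was the one with the short cyclic AMP response element TGACG. It held 3 matches, at positions -180, -53 and -7 from the start, counted to the match's leftmost base, the farthest on the reverse strand. The letters TGACG occurred at least once, on either strand, in 20.8% of the 32851 promoters of the table, and 3 or more times in 1.03%. The full palindrome TGACGTCA, which would overlap with TGACG, was in 0 of the 3 promoters and in 1.79% of all. CCAAT, the motif after which the family is named, occurred 2 times in the Cebpg promoter and 0 times in the others, and was in 37.4% of all promoters. The palindrome TTGCGCAA, a C/EBP recognition sequence, was in 0 of the 3 and in 0.183% of all. A match is a run of letters and does not show that a factor binds there. The 250 bases before each start are shown 5′ to 3′ for these members, with matches in capitals (TGACG or its complement in Cebpb, and the complement of CCAAT in Cebpg). The Cebpa stretch, with no match to any of the 4 motifs, stands beside them as a member that was lower in fasted liver. The Cebpb stretch is chr2:167688665-167688914 (forward strand), the Cebpa stretch chr7:35119043-35119292 (forward), and the Cebpg stretch chr7:35056567-35056816 (reverse).
Cebpb: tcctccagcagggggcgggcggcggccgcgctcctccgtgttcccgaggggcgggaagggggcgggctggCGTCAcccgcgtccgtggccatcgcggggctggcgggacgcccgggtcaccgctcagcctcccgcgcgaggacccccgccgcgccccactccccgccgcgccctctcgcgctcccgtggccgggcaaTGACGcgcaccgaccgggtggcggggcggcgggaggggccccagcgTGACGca
Cebpa: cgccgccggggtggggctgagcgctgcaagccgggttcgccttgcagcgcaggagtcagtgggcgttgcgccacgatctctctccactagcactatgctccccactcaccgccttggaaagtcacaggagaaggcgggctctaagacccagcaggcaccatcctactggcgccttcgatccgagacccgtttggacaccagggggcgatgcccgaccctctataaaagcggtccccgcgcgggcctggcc
Cebpg: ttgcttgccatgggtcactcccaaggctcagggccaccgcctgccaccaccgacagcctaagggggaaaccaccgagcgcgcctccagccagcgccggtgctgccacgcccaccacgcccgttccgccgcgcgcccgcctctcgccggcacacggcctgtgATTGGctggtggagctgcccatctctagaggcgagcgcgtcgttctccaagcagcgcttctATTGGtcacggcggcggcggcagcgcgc

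All ratios below are log2 values of fasted over re-fed liver, turned for the dye swap, so that values above 0 mean more signal from the fasted liver. A level is the normalised log2 intensity of 1 channel, comparable between livers for the same probe and not between probes. The arrays had median intensities of 40 to 75 in red and 44 to 96 in green over backgrounds of 25 to 35 and 20 to 33, and their number limits the precision of every value. The 19720 probes kept as above background were tested together in limma, and one was called where the adjusted p was under 0.10 and the groups differed by 1.5-fold or more (0.585 on the log2 scale). All 4 members were kept, and each was well above background in both channels of every array. Hepatocyte markers were bright in all livers, with 7 of 7 genes kept and a summed level, by the brightest kept probe of each gene, of 18.46 to 18.86. Pancreatic acinar markers stood apart in the re-fed liver of replicate 3, where 4 kept genes of 10 summed to 14.2 against 10.14 to 10.34 in the other re-fed and 10.26 to 10.74 in the fasted livers. Values without that replicate are therefore given beside the ratios, pairs and lists below.

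Cebpb encodes the factor for which this family is best known in the response to hormones and to cyclic AMP. Its probe (NM_009883) lies on chromosome 2 at 167515828 to 167515887, forward strand, in the mm9 build of the files, which leave exon, intron or UTR unstated. The Cebpb log2 ratio was 0.86, 1.91, 1.40 and 1.42 in replicates 1 to 4. All 4 arrays gave a higher level in fasted liver, with replicate 1 lowest and replicate 2 highest. The mean was 1.40 ± 0.43 (SD, n = 4), with a 95% confidence interval of 1.004 to 1.79 and an adjusted p of 0.0116 in limma. Cebpb ranked 42 from the top of the 19720 kept probes by mean ratio. The Cebpb mean was 1.40 without replicate 3 (adjusted p of 0.0594 in limma), where acinar transcripts stood apart.

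The Cebpb level was 13.04, 13.48, 12.96 and 13.06 in the fasted livers of replicates 1 to 4. It was 12.18, 11.57, 11.57 and 11.64 in the re-fed livers. The groups did not overlap, and the lowest fasted liver exceeded the highest re-fed liver by 0.79, or by 0.37 without the normalisation of brightness between arrays. At these scaled levels the re-fed liver of replicate 1 stood apart from the other re-fed livers, and its fasted liver lay within the fasted range. That array gave the smallest Cebpb ratio and was the dimmest. Raw re-fed intensities were 3560, 2856.5, 3420 and 4456 in replicates 1 to 4, with replicate 1 inside the range. Raw fasted intensities were 4875.5, 11290, 8919 and 11463, with replicate 1 lowest. Which liver of replicate 1 stood apart thus depends on the scaling of levels between arrays. Of all kept probes, 5.79% had fasted levels wholly above the re-fed levels. Over RNA of whole tissue, a larger number of cells of one type and more RNA per cell cannot be told apart.

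Cebpd encodes a factor with low activity in resting tissue that is induced in acute responses. Its probe (NM_007679) lies on chromosome 16 at 15888459 to 15888518, forward strand (mm9). The Cebpd log2 ratio was 1.32, 2.14, 0.92 and 1.001 in replicates 1 to 4. All 4 arrays again gave a higher level in fasted liver, and the highest ratio was on replicate 2, as for Cebpb. The mean was 1.35 ± 0.56 (SD, n = 4), with a 95% confidence interval of 0.86 to 1.84 and an adjusted p of 0.0206 in limma. It ranked 48 from the top. The Cebpd mean without replicate 3 was 1.49 (adjusted p of 0.0625 in limma).

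The Cebpd level was 11.94, 11.97, 11.07 and 11.22 in the fasted livers of replicates 1 to 4, and 10.62, 9.82, 10.15 and 10.22 in the re-fed livers. The groups did not overlap, with a gap of 0.45, or 0.58 without that normalisation. At these scaled levels both fasted livers in Cy5 lay above both fasted livers in Cy3. Raw fasted intensities did not split in this way, at 2307.5 and 3917.5 in Cy5 and 2391 and 3170.5 in Cy3. The mean ratio was 1.73 on the arrays with the fasted liver in Cy5 and 0.96 on those with it in Cy3. The part of the Cebpd ratio that did not turn with the swap, the dye effect, was 0.38 (adjusted p of 0.134 in limma). Both orientations gave a higher fasted level, so the direction of the Cebpd difference did not rest on one of them.

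Cebpa encodes the founding member and the one most tied to hepatocyte identity. Its probe (NM_007678) lies on chromosome 7 at 35906517 to 35906576, forward strand (mm9). The Cebpa log2 ratio was -0.81, -0.63, -0.29 and -0.17 in replicates 1 to 4. Fasted liver had the lower level on all 4 arrays, by more in the pair with the fasted liver in Cy5. The mean was -0.47 ± 0.30 (SD, n = 4), with a 95% confidence interval of -0.77 to -0.18 and an adjusted p of 0.0787 in limma. Cebpa met the threshold on p and missed the fold limit, its re-fed level being 1.39-fold the fasted level. It was therefore not among the probes called lower. Without the fold limit, 6.15% of all probes were lower at an adjusted p under 0.10, Cebpa and Cebpg among them.

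The Cebpa level was 11.25, 11.24, 11.32 and 11.48 in the fasted livers of replicates 1 to 4. It was 12.06, 11.87, 11.62 and 11.65 in the re-fed livers. The groups were apart by 0.14 and did not overlap, as for 7.80% of all probes, whose fasted levels lay wholly below the re-fed ones. Without the normalisation of brightness between arrays, the Cebpa levels overlapped. The mean Cebpa ratio was -0.72 with the fasted liver in Cy5 and -0.23 with it in Cy3. The Cebpa dye effect was -0.24 (adjusted p of 0.0806 in limma), one of the 14.8% of probes for which that effect passed 0.10. With a dye term in the model, the Cebpa adjusted p was 0.0075 at the same mean.

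Cebpg encodes the short member that acts by forming dimers. Its probe (NM_009884) lies on chromosome 7 at 35835477 to 35835536, reverse strand (mm9). Cebpg was the dimmest member, with raw intensities of 95 to 350.5 over local backgrounds of 19 to 33. The Cebpg log2 ratio was -0.20, -0.37, -0.45 and -0.25 in replicates 1 to 4. Fasted liver had the lower level on every array, and the ratios of the 2 dye orientations overlapped. The mean was -0.32 ± 0.11 (SD, n = 4), with a 95% confidence interval of -0.50 to -0.13 and an adjusted p of 0.0692 in limma.

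The Cebpg level was 7.57, 7.71, 7.70 and 7.94 in the fasted livers of replicates 1 to 4. It was 7.77, 8.07, 8.15 and 8.19 in the re-fed livers. Each re-fed liver was above the fasted liver of its own array, while the groups overlapped. The difference was therefore seen within arrays and not between the ranges of the groups. The Cebpg dye effect was 0.03 (adjusted p of 0.783 in limma), and that of Cebpb was -0.01 (adjusted p of 0.976 in limma).

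Without replicate 3 the mean was -0.53 for Cebpa and -0.27 for Cebpg. Leaving out an array cost neither lower member a call, as neither had one, but it bore on the adjusted p. The Cebpa adjusted p in limma rose to 0.160, 0.223 and 0.175 without replicates 1, 2 and 3, and was 0.0994 without replicate 4. The Cebpg adjusted p in limma was 0.0979 without replicate 1 and 0.197, 0.269 and 0.170 without replicates 2, 3 and 4. Cebpb and Cebpd were called whichever array was left out, with adjusted p in limma of at most 0.0594 and 0.0625.

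**Figure D1:**
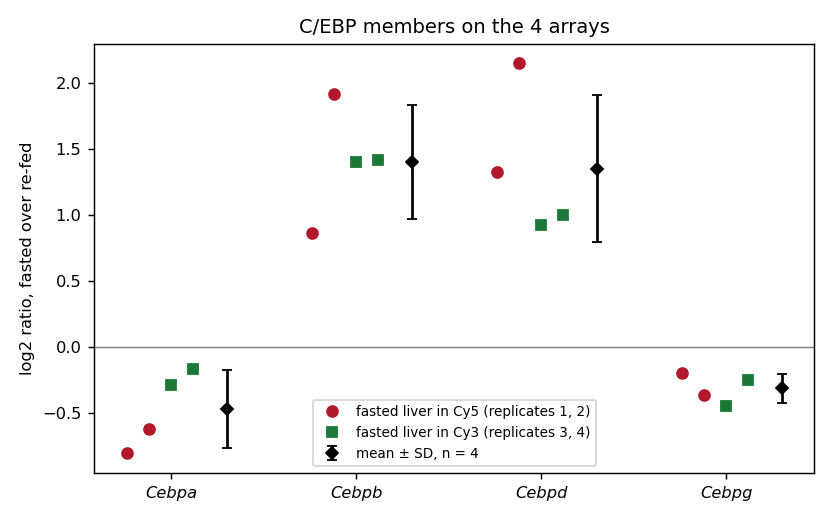
Log2 ratio of fasted over re-fed liver (y axis) of the 4 C/EBP members (x axis), with 1 point per array, the dye orientation by symbol, and the mean ± SD in black (n = 4). Cebpb and Cebpd lie above 0 and Cebpa and Cebpg below 0 on all 4 arrays, and the points of Cebpa and Cebpd are split by dye orientation.

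**Figure D2:**
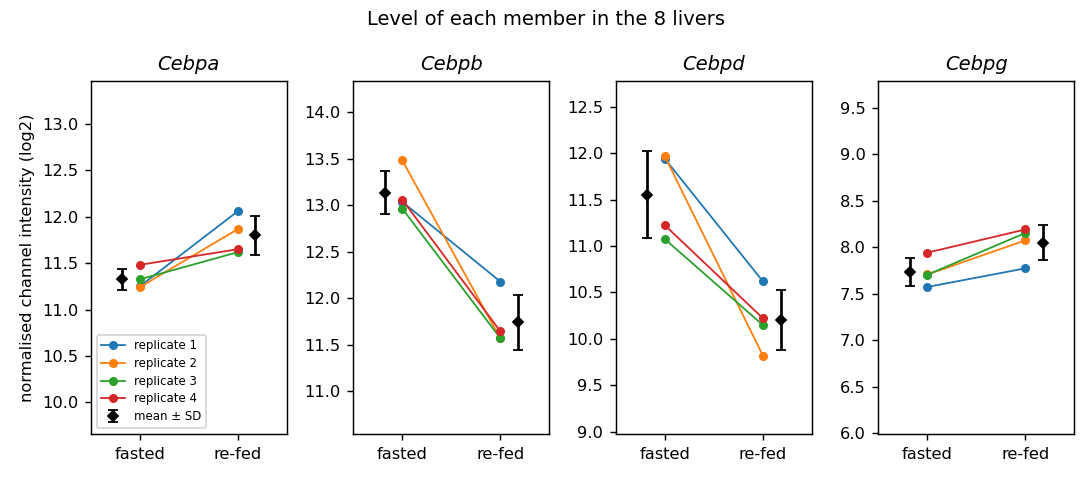
Normalised log2 channel intensity (y axis, each panel with its own range of equal height) in fasted and re-fed livers, with a line joining the 2 livers of an array and black diamonds for the mean ± SD (n = 4). At these levels, scaled between arrays, the groups are apart for Cebpa, Cebpb and Cebpd and overlap for Cebpg. The re-fed liver of replicate 1 stands high for Cebpb at this scaling.

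The place of the members among all probes is shown by the distribution of mean ratios. Cebpb and Cebpd sat in the upper tail, at percentiles 99.79 and 99.76. Cebpa was at percentile 3.71 and Cebpg at percentile 7.96, on the lower side of a distribution whose median was -0.001.

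**Figure D3:**
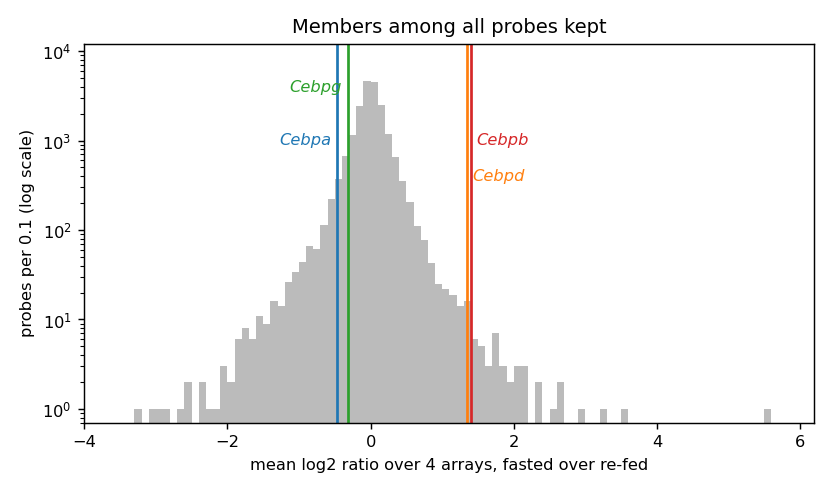
Number of probes per 0.1 of mean log2 ratio (y axis, log scale) against the mean ratio of fasted over re-fed liver on 4 arrays (x axis), for all 19720 kept probes. Coloured lines mark the members: Cebpb (1.40) and Cebpd (1.35) lie together in the upper tail, Cebpa (-0.47) and Cebpg (-0.32) on the lower side of the centre.

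The members were then compared with each other within arrays, since the ratios of 1 array come from the same 2 livers. Of the 6 pairs, 4 set a member that was higher in fasted liver on every array against one that was lower on every array, which fixes the sign of their difference, so that the size is given here. Cebpb exceeded Cebpa by 1.87 ± 0.45 (SD, n = 4) on the log2 scale, with a 95% interval of 1.16 to 2.58, and Cebpd exceeded Cebpa by 1.82 ± 0.77 (SD, n = 4), with an interval of 0.59 to 3.05. Cebpg differed from Cebpb by -1.71 ± 0.51 (SD, n = 4), with an interval of -2.52 to -0.91, and from Cebpd by -1.66 ± 0.58 (SD, n = 4), with an interval of -2.58 to -0.75. These 4 intervals, which rest on a t distribution, do not include 0. In the two-sided exact sign-flip test, 2 of the 16 sign flips were as extreme for each of these 4 pairs, the fewest that 4 arrays allow, so that the test restates the fixed sign and cannot reach 0.05. Without replicate 3 the 4 differences were 1.93, 2.02, -1.67 and -1.76 in the same order.

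The other two pairs had differences of both signs. Cebpd minus Cebpb was 0.46, 0.23, -0.47 and -0.42 in replicates 1 to 4, with a mean of -0.05 ± 0.47 (SD, n = 4) and a 95% interval of -0.79 to 0.69. Cebpd had the larger ratio on both arrays with the fasted liver in Cy5 and the smaller ratio on both with it in Cy3 (exact sign-flip p = 0.875). Cebpg minus Cebpa was 0.61, 0.26, -0.16 and -0.08, with a mean of 0.16 ± 0.35 (SD, n = 4) and a 95% interval of -0.40 to 0.71. It split by orientation in the same way (exact sign-flip p = 0.5, adjusted 0.6). These intervals still hold differences of more than 1.5-fold, so equal responses of the pairs were not shown. Without replicate 3 the means were 0.09 for Cebpd minus Cebpb and 0.26 for Cebpg minus Cebpa.

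By distance over the 4 log2 ratios, Cebpb lay nearest to Lgals4 (0.29), Slc38a4 (0.34) and Ulk1 (0.41) among 16049 other named genes. Slc38a4 encodes an amino acid transporter, Lgals4 a galectin, and Ulk1 a kinase that starts autophagy. Cebpd lay nearest to Errfi1 (0.33), Cdkn1a (0.37) and Btg1 (0.54), which encode an inhibitor of the EGF receptor, an inhibitor of cyclin-dependent kinases and an antiproliferative protein. Cebpd was the 16th nearest gene to Cebpb, at a distance of 0.81. Without replicate 3 the nearest 3 genes to Cebpb were the same, and those to Cebpd were Errfi1, Cdkn1a and Gm9629. All 3 genes nearest to Cebpd on 4 arrays shared its higher ratios in replicates 1 and 2, the arrays with the fasted liver in Cy5. Over all kept probes, ratios correlated at 0.66 and 0.75 between arrays of one dye orientation and at 0.22 to 0.40 between orientations, so that these distances hold the dye split too and are descriptions of likeness in ratio.

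Relatives and bZIP partners of the members had 11 of 12 genes kept, of which 0 were called higher and 2 lower, against 1.70% and 2.08% of all probes, with a median log2 ratio of -0.23 against -0.001 for all probes. This list and those below were chosen with earlier results of these data known, so their counts are not independent of the data. Ddit3 (CHOP), a stress-induced C/EBP relative that blocks the others by dimerising with them, was -1.61, -2.02, -1.82 and -1.78 in replicates 1 to 4. All arrays gave lower Ddit3 in fasted liver, at a mean of -1.81 ± 0.17 (SD, n = 4; adjusted p of 0.0017 in limma). Dbp, a clock-driven factor of the related PAR group, had a mean of -1.37 ± 0.51 (SD, n = 4; adjusted p of 0.0163 in limma), and its second probe was also called, at -1.53. Cebpe, a factor known from granulocytes, was at -0.58 ± 0.23 (SD, n = 4; adjusted p of 0.0304 in limma) and missed the fold limit by little, since it was called without replicate 1 or 3. The other 8 kept genes, among them the stress factors Atf3, Atf4 and Atf5 and the AP-1 subunit Jun, were not called, and ranged from -0.36 to 0.48. Without replicate 3, 0 genes of this list were called higher and 3 lower. With the background model fitted on all spots, 0 were called in either direction.

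Regulators of C/EBP transcription, message and protein had 17 of 18 genes kept, with 2 called higher, 1 lower and a median of 0.002, beside the same shares of all probes. Il6ra, a chain of the interleukin 6 receptor, had a mean of 0.83 ± 0.51 (SD, n = 4; adjusted p of 0.0574 in limma), and was 1.59 on replicate 2 against 0.52 to 0.63 on the others. Trib3, a pseudokinase of a family that can direct C/EBP proteins to degradation, had a mean of 0.75 ± 0.49 (SD, n = 4; adjusted p of 0.0689 in limma). The Il6ra call was lost without replicate 2, where the mean was 0.58, and without replicates 3 and 4, where it was 0.91 and 0.93. The Trib3 call was lost without replicate 1, where the mean was 0.54, and without replicates 2 and 3, where it was 0.80 and 0.73. The mean thus fell under the fold limit without replicate 2 for Il6ra and without replicate 1 for Trib3, and in the other cases the adjusted p over 3 arrays missed its limit. Calr (calreticulin), an endoplasmic reticulum chaperone that also binds Cebpa and Cebpb messages, had a mean of -0.95 ± 0.30 (SD, n = 4; adjusted p of 0.0151 in limma) and was called whichever array was left out. Crtc2, a CREB coactivator, was at 0.50 ± 0.10 (SD, n = 4; adjusted p of 0.0204 in limma), and Stat3, which carries the interleukin 6 signal, at 0.57 ± 0.34 (SD, n = 4; adjusted p of 0.0661 in limma). Neither reached 1.5-fold on average, although Stat3 was called without replicate 1 (0.65, adjusted p of 0.0792 in limma), and dimmer probes of Crtc2 and Stat3 were at 0.14 and 0.16. Creb1, which encodes CREB, was at -0.11 and not called. Without replicate 3, 0 regulators were called higher and 1 lower. With the background model fitted on all spots, 0 regulators were called in either direction.

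Metabolic genes that C/EBP factors are known to activate had 16 of 17 kept, with 6 called higher (1.70% of all probes were), 1 lower (2.08% of all probes were) and a median of 0.44 against -0.001 for all probes. This list, too, was chosen with earlier results of these data known. It holds Pck1, G6pc and Ppargc1a, which the authors reported as induced by fasting in this experiment. Its count and median against all probes are therefore no independent result. The largest ratios in the list were those of Igfbp1 (5.55), G6pc (3.60) and Pck1 (2.66), which encode a circulating binder of insulin-like growth factors and the enzymes that end and open hepatic glucose production. Ppargc1a, a coactivator, was also called, at 1.201, while its dimmer probe was at 0.45. Tat, which encodes an enzyme of tyrosine breakdown, had a mean of 0.84 ± 0.46 (SD, n = 4; adjusted p of 0.0452 in limma), and the hormone gene Fgf21 one of 1.11 ± 0.69 (SD, n = 4; adjusted p of 0.056 in limma). The Tat call was lost without replicate 1, 2 or 3, at means of 0.72, 0.70 and 0.91, and that of Fgf21 without replicate 2 or 3, at means of 1.08 and 1.19. In these cases the fold limit was still met and the adjusted p over 3 arrays was not. Gadd45a, a growth arrest gene, had a mean of -1.02 ± 0.24 (SD, n = 4; adjusted p of 0.0087 in limma) and was the gene of the list called lower. Without replicate 3, 4 metabolic genes were called higher and 1 lower. With the background model fitted on all spots, 1 was called higher and 0 lower.

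Acute-phase genes, the targets of Cebpb and Cebpd in inflammation, had 18 of 18 kept and 0 called in either direction in limma, with a median of 0.14. At shares of 1.70% and 2.08% over all probes, 18 genes would hold fewer than 1 call each way, so that this count says nothing particular to the list. They ranged from -0.45 to 1.28, and 0 of them had an adjusted p under 0.10. Saa2 and Saa1, which encode serum amyloid A proteins, had the highest means of the list. Saa2 was 0.98, -0.03, 2.88 and 1.29 in replicates 1 to 4, at a mean of 1.28 ± 1.20 (SD, n = 4; adjusted p of 0.141 in limma). Saa1 was 0.69, 0.15, 2.42 and 1.12, at a mean of 1.09 ± 0.97 (SD, n = 4; adjusted p of 0.126 in limma). Both were highest on replicate 3, without which the means were 0.75 ± 0.69 for Saa2 and 0.65 ± 0.48 for Saa1 (SD, n = 3; adjusted p of 0.247 and 0.195 in limma), and 0 genes of the list were called. The probes of these near-identical copies may share signal. The rebuilt SAM test and limma with a dye term each called 2 of the 18 genes of this list higher. Of all 19720 kept probes, 373 were called higher by the rebuilt SAM test and 381 by limma with a dye term.

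Signal of other cell types that express C/EBP factors was compared between the groups. Macrophage markers had 5 of 6 genes kept and summed to 13.02 to 13.38 in fasted and 12.48 to 13.27 in re-fed livers. Neutrophil markers had 4 of 7 kept, at 10.36 to 10.78 and 10.09 to 10.73, and adipocyte markers 2 of 5, at 9.39 to 9.92 and 9.33 to 9.96. Adipocyte markers were highest in the re-fed liver of replicate 3, at 9.96 against at most 9.53 in the other re-fed livers, and the ratio of Cfd (adipsin) was -1.37 on that array against -0.22 to 0.55 on the others. Without replicate 3, fasted and re-fed livers summed to 13.02 to 13.03 and 12.48 to 13.27 for macrophage markers, and to 9.46 to 9.92 and 9.33 to 9.53 for adipocyte markers, and the neutrophil ranges were the same as with it. The ranges overlapped between fasted and re-fed livers for each of these 3 lists, with and without replicate 3, and 0 of their kept genes were called by limma. The part of these cells in the ratios of the members was not tested.

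**Figure D4:**
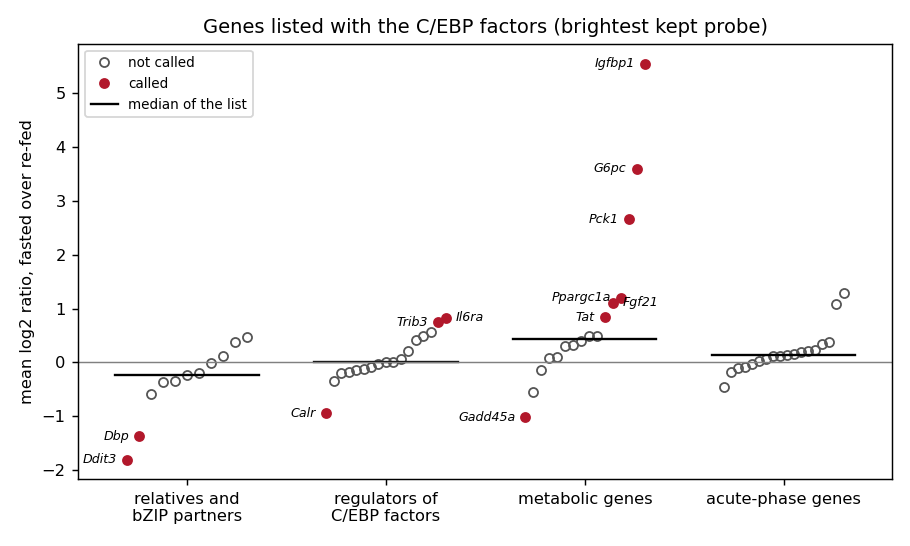
Mean log2 ratio of fasted over re-fed liver (y axis) of each kept gene in 4 lists (x axis), by its brightest probe, with called genes filled and named and the list median as a bar. The largest called rises are metabolic genes (Igfbp1 at 5.55), Ddit3 (-1.81) is the lowest point, and no acute-phase gene is called.

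One processing step decided whether the 2 rises were called. With the background model fitted on all spots, including 54 with extreme local background, Cebpb was at 1.27 (adjusted p of 0.303 in limma) and Cebpd at 1.03 (adjusted p of 0.558 in limma), and 5 probes in all were called higher. Cebpa was then at -0.43 and Cebpg at -0.15 (adjusted p of 0.558 in limma for both). With those spots left out, with no background correction, and with the deposited log2 ratios, both were called. The plot of means under each setting shows these values.

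**Figure D5:**
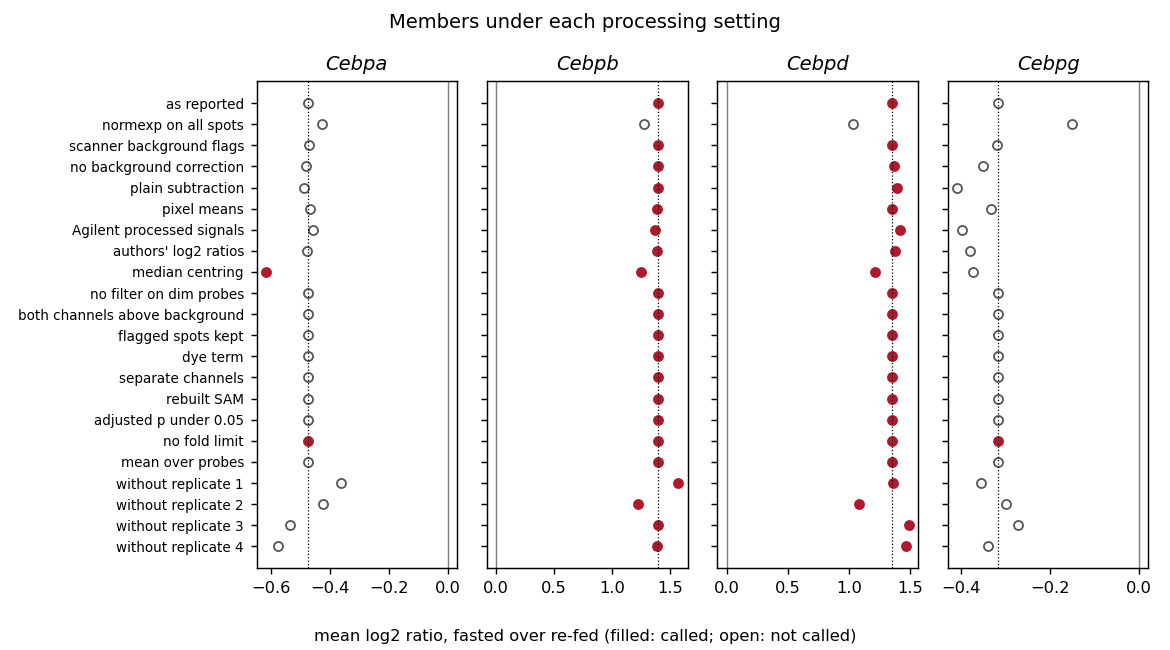
Mean log2 ratio of fasted over re-fed liver (x axes, a range for each panel) of each member under the reported processing and 21 alternatives (y axis), with filled points called and open points not called, a grey line at 0 and a dotted line at the reported value. No member changes sign, and Cebpb and Cebpd are called in 20 of the 21 alternatives. Points on the dotted line in every panel are settings that leave the means as they were, where no sign could change.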

How the data were processed

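Members and lists were chosen with earlier results of these data known. The authors amplified 200 ng of RNA per liver, hybridised it to Agilent arrays and extracted spots with Feature Extraction. The deposited scanner files hold intensity per spot (pixel medians, means, local backgrounds and flags). The authors also deposited log2 ratios, normalised within arrays by loess in limma; that table was matched to spots by row number and used as an alternative.

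Here, spots with a local background over 3 times the array median were left out (54 of 172080), a step taken over from earlier work on these data and chosen after its effect on calls had been seen. Medians were then corrected by normexp (offset 50), normalised by loess and tested with limma 3.58.1 in R 4.3.3 (lmFit, eBayes, two-sided, Benjamini-Hochberg over 19720 kept of 39429 probes). Kept probes were well above background on all 4 arrays in at least 1 condition, in 0.5 or more of their spots. Levels were scaled between arrays by Aquantile. Listed genes enter by their brightest kept probe. Named are listed genes that were called and, for relatives and regulators, those with an adjusted p under 0.10; Atf3, Atf4, Atf5, Jun, Creb1, Cfd, Saa1 and Saa2 were named after their values were seen. The nearest genes were taken for members with a mean of at least 0.58 in size. Steps were checked on simulated data. Names came from GRCm38.p6 RefSeq accessions where held. The methods name SAM at 10% FDR and 1.5-fold, which was rebuilt with all 16 sign flips. The nearest genes and marker sums without replicate 3 were added after seeing the data. Arrays share 1 slide. Proteins were not analysed here.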

Additional observations from a re-analysis of the deposited data

Results flagged for a closer look

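Of 28 sets of 4 values examined, 4 had a value standing further from the rest than a Dixon test at 95% allows, where chance gives about 1 in 20 for independent sets. The lists were chosen with earlier results known, and levels and ratios of a probe share values. The count is therefore no test against chance. The Cebpb level in the re-fed liver of replicate 1 was 12.18, against 11.57 to 11.64 in the other re-fed livers (gap over range of 0.876). That flag depends on the scaling between arrays, since its raw intensity of 3560 lay within the 2856.5 to 4456 of the others. The Il6ra ratio on replicate 2 was 1.59, against 0.52 to 0.63 (0.892), and that of Pck1 on the same replicate was 3.72, against 2.27 to 2.35 (0.944). The median ratio of 4 acinar markers on replicate 3 was -3.37, against -0.01 to 0.05 (0.983).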

How the results depend on the processing

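No member changed sign under any of the 21 alternatives. The settings for the probe filter, flagged spots, dye term, separate channels, SAM, thresholds and mean over probes left every member's mean unchanged. In those the sign could not change, and dropping the fold limit could not cost a call. With normexp on all spots, Cebpb (1.27) and Cebpd (1.03) lost their calls, called genes fell to 0 among relatives and 0 among regulators in either direction, and metabolic genes had 1 called higher and 0 lower; over all probes 5 were higher and 16 lower. Cebpa was called with median centring (-0.62) and, at -0.47, without a fold limit, as was Cebpg (-0.32). Relatives called lower numbered 1 with the scanner's background flags or separate channels and 4 with plain subtraction or processed signals. Regulators called higher numbered 4 with processed signals or no fold limit, 1 with median centring or no filter, and 0 at an adjusted p under 0.05. Metabolic genes called lower numbered 0 with both channels above background. Acute-phase genes called higher numbered 1 with processed signals and 2 with the dye term or SAM. Over all 19720 kept probes of the reported setting, 335 were higher and 410 lower. These numbers were 549 and 713 with plain subtraction, 685 and 904 with processed signals, and 933 and 1213 without a fold limit. They were 381 and 445 with the dye term, 373 and 439 with SAM, 296 and 363 with the scanner's flags, and 342 and 415 with separate channels. Median centring gave 230 higher and 635 lower, no filter 306 and 373, and both channels above background 330 and 406. At an adjusted p under 0.05 there were 271 and 348, and without replicate 3 there were 208 and 256. Leaving out single replicates gave Cebpa means of -0.58 to -0.36, Cebpb 1.22 to 1.58, Cebpd 1.08 to 1.49 and Cebpg -0.36 to -0.27, with 0 to 1 relatives called higher and 0 to 2 regulators called higher. The Cebpa dye effect had an adjusted p of 0.145, 0.1001 and 0.276 in limma with normexp on all spots, the authors' ratios and median centring. The cause of these changes was not tested. Each ratio is taken within an array, so the reported test already pairs the 2 livers of an array, and no further replicate block applies.

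Each member rests on 1 probe and 4 arrays, and the design could not separate an array from its 2 livers.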
